A study of Drosophila melanogaster with 6 samples.

Results

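The Jonah and trypsin genes of Drosophila melanogaster encode serine endopeptidases of the S1 family, the enzymes that cut dietary protein in the fly gut. They were taken by name from the deposited tables: genes whose symbol starts with Jon followed by digits, genes whose symbol ends in Try, and yip7. The rule used no measured value and found 27 genes among 15904 loci. Of these, 10 are trypsin genes and 17 are Jonah genes or yip7.

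Enzymes of this kind are made as inactive precursors, secreted into the gut lumen and switched on there by cleavage. Trypsins cut after arginine and lysine. The Jonah genes are a family of related small proteases, named for their sites on the polytene chromosomes and known for RNA in the larval and adult midgut. Yip7 is a Jonah-type protease whose name comes from a protein interaction screen with yippee. Neither family is known as part of eye development, and an eye disc is not a digestive tissue.

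RNA was measured in eye discs of wandering larvae at the end of the third instar, in 3 groups of 2 libraries, with 30 pairs of discs for each library. The overexpression group had the genotype w1118 with sev-GAL4/UAS-GFP and EP3037, an insertion through which GAL4 can drive the long non-coding RNA gene Hsromega. The RNAi group had w1118 with sev-GAL4/UAS-GFP and the hsromegaRNAi transgene. The control had w1118 with sev-GAL4/UAS-GFP alone, so the driver and the GFP transgene were shared by all groups. The driver uses sevenless regulatory sequence, which is active in only some cells of the developing retina. The question put to the data was whether these genes change when Hsromega is driven up or down. Hsromega stood at FPKM 376 in overexpression discs and 204 in RNAi-labelled discs, against 202 in control discs. It was called in neither comparison of the authors' deposited table, with a q of 0.758 for overexpression and 0.997 for RNAi. The RNAi-labelled libraries thus did not show less of the targeted RNA, and they are named by their label throughout.

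Values are FPKM, fragments divided by the length of the transcript and by the mapped fragments of the library. The authors gave 1 pooled FPKM for each group, which carries no standard deviation. The p and q are those of the authors' Cuffdiff test, and a gene was called at a q of 0.05 or less. The test sets a difference against a variance modelled from 2 libraries for each group, and its p and q do not themselves measure the spread between libraries. That spread may be technical, since nothing in the labels says that the libraries came from separate cultures. In RNA from whole discs, fewer cells of a kind and less RNA per cell cannot be told apart.

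The 27 genes are compact and stand in 8 places of the dm6 genome, coordinates counted from 1. Their longest annotated transcripts run from 810 to 1397 nt with a median of 904 nt. The encoded proteins have 252 to 280 residues, with a median of 265. A single exon makes up 21 of the 27, and 26 have no more than 2 exons. The trypsin cluster holds 10 members within 20.7 kb of chromosome 2R, from 11336840 to 11357537. The Jon65A cluster, which includes yip7, holds 5 within 19.2 kb of chromosome 3L, from 6035216 to 6054443. The Jon25B cluster holds 3 within 5.2 kb of chromosome 2L, from 4949941 to 4955144. Smaller groups stand at 66C (2 genes), 99C (3 genes) and 99F (2 genes), and Jon44E and Jon74E stand alone. The deposited loci of Jon44E and deltaTry each also hold another gene, CG8586 and CG13202.

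In the control discs these genes were near the floor of the measurement. Only 2 of 27 reached FPKM 1, and both were below 3. These were iotaTry, a trypsin gene at the edge of its cluster, at 2.98 and Jon74E at 1.74. The median member stood at 0.779 in overexpression discs and 0.293 in RNAi-labelled discs, against 0.268 in control discs. Over all loci the medians were 2.37 in overexpression discs and 2.36 in RNAi-labelled discs, against 2.68 in control discs.

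A few members were high in overexpression discs. Of the 27 genes, 12 reached FPKM 1 in overexpression discs and 7 in RNAi-labelled discs, against 2 in control discs. Of all 15904 loci, 9414 reached it in overexpression discs and 9245 in RNAi-labelled discs, against 9529 in control discs. An FPKM of 5 was passed by 6 members in overexpression discs and by 0 in RNAi-labelled and control discs. The summed FPKM of all members was 193.4 in overexpression discs and 15.6 in RNAi-labelled discs, against 12.7 in control discs. The 6 members above 5 made up 180.6 of that sum in overexpression discs and 4.60 in RNAi-labelled discs, against 2.96 in control discs. The other 21 summed to 12.8 in overexpression discs and 11.0 in RNAi-labelled discs, against 9.78 in control discs. Nearly all of the difference in the sum lay in 6 genes.

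**Figure D1:**
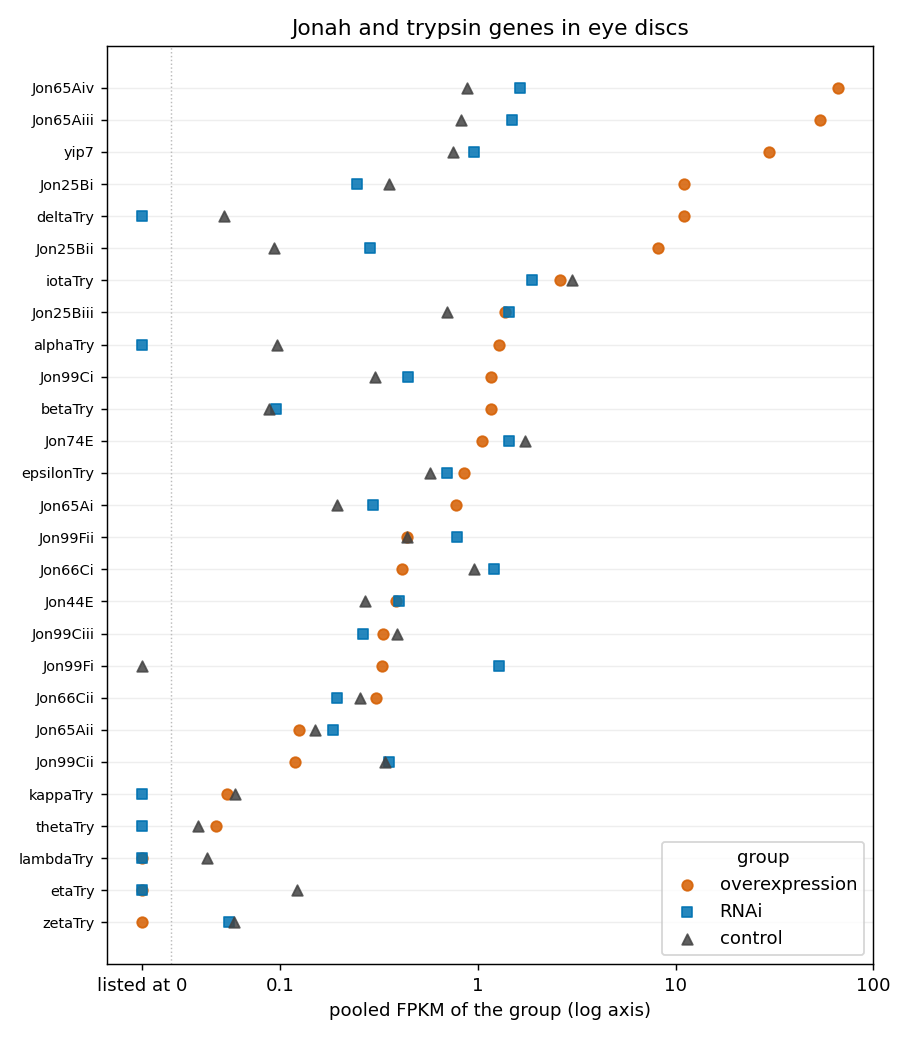
Pooled FPKM of each of the 27 genes (rows, log axis) in overexpression discs (circles), RNAi-labelled discs (squares) and control discs (triangles), ordered by the overexpression value; points left of the dotted line are listed at 0. The 6 uppermost genes lie above 5 in overexpression discs and below 2 in the other groups, while most other members overlap.

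The largest values belonged to 3 genes of the Jon65A cluster, and these 3 were the members called in overexpression discs. Jon65Aiv (chromosome 3L, 6039155 to 6040135, plus strand), a Jonah protease gene of 2 exons, stood at FPKM 66.7 in overexpression discs and 1.63 in RNAi-labelled discs, against 0.886 in control discs. Its level in overexpression discs was 75.4-fold that of the control, a log2 fold of 6.24 with an implied standard error of 1.23, and the authors' deposited table gave a q of 0.00653. Only the overexpression value stood out, since the RNAi-labelled and control values were both below 2. The implied standard error is the log2 fold divided by the deposited statistic. The Cuffdiff p does not follow from that statistic alone. Jon65Aiv had a statistic of 5.05 with a p of 0.0003, and Jon65Aiii had 4.73 with a smaller p of 0.00025.

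Jon65Aiii (chromosome 3L, 6050757 to 6051690, plus strand), also a Jonah gene of 2 exons, showed nearly the same pattern. It stood at FPKM 54.0 in overexpression discs and 1.48 in RNAi-labelled discs, against 0.824 in control discs. The fold over control was 65.5, a log2 fold of 6.03 with an implied standard error of 1.28, and a q of 0.00565 in the authors' deposited table. Jon65Aiv and Jon65Aiii differed by less than their implied errors in this fold. The third, yip7 (chromosome 3L, 6035216 to 6036175, plus strand), stood at FPKM 29.7 in overexpression discs and 0.959 in RNAi-labelled discs, against 0.747 in control discs. Its fold over control was 39.8, a log2 fold of 5.32 with an implied standard error of 1.29, and a q of 0.0172 in the authors' deposited table. All 3 genes share the plus strand and a 2-exon structure, as does Jon65Aii.

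In all, 15 of the 27 members had a test in this comparison, 3 were called higher and 0 lower. Over all loci, 0.132% of 11372 tested loci were called higher and 1.06% lower. At the unadjusted p of 0.05 or less, which takes no account of the number of tests, 4 members were higher, against 0.58% of the tested loci. The fourth was Jon25Bi. The calls at a q of 0.05 rest on the authors' adjustment. Adjusted again with the Benjamini-Hochberg method over the tested loci of the same table, the deposited p gave 0.142 for Jon65Aiii, 0.155 for Jon65Aiv and 0.215 for yip7. None of the 3 passed 0.05 under that adjustment. It covers a single comparison, whereas the authors' q is the same for equal p in both comparisons, so the sets of tests differ.

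The other members of the Jon65A cluster were not high. Jon65Aii begins 630 bases beyond the end of Jon65Aiii on the same strand. It stood at FPKM 0.124 in overexpression discs and 0.184 in RNAi-labelled discs, against 0.150 in control discs, and was not tested. Jon65Ai, next to it on the minus strand, stood at 0.779 in overexpression discs and 0.293 in RNAi-labelled discs, against 0.193 in control discs, with a q of 0.714 in the authors' deposited table for overexpression. High and low genes thus stood side by side within the cluster.

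Loci that are no members were low or level here. Between yip7 and Jon65Aiv lie CR43952, at FPKM 0.137 in overexpression discs and 0 in both other groups, and CG6462, at 0.0408 in overexpression discs and 0.0829 in RNAi-labelled discs, against 0 in control discs. No other deposited locus lies in the 10621 bases between Jon65Aiv and Jon65Aiii. The neighbour tan, on the far side of Jon65Ai, stood at 21.9 in overexpression discs and 23.8 in RNAi-labelled discs, against 17.8 in control discs. The summed FPKM of the 5 cluster members was 151.3 in overexpression discs and 4.55 in RNAi-labelled discs, against 2.80 in control discs.

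**Figure D2:**
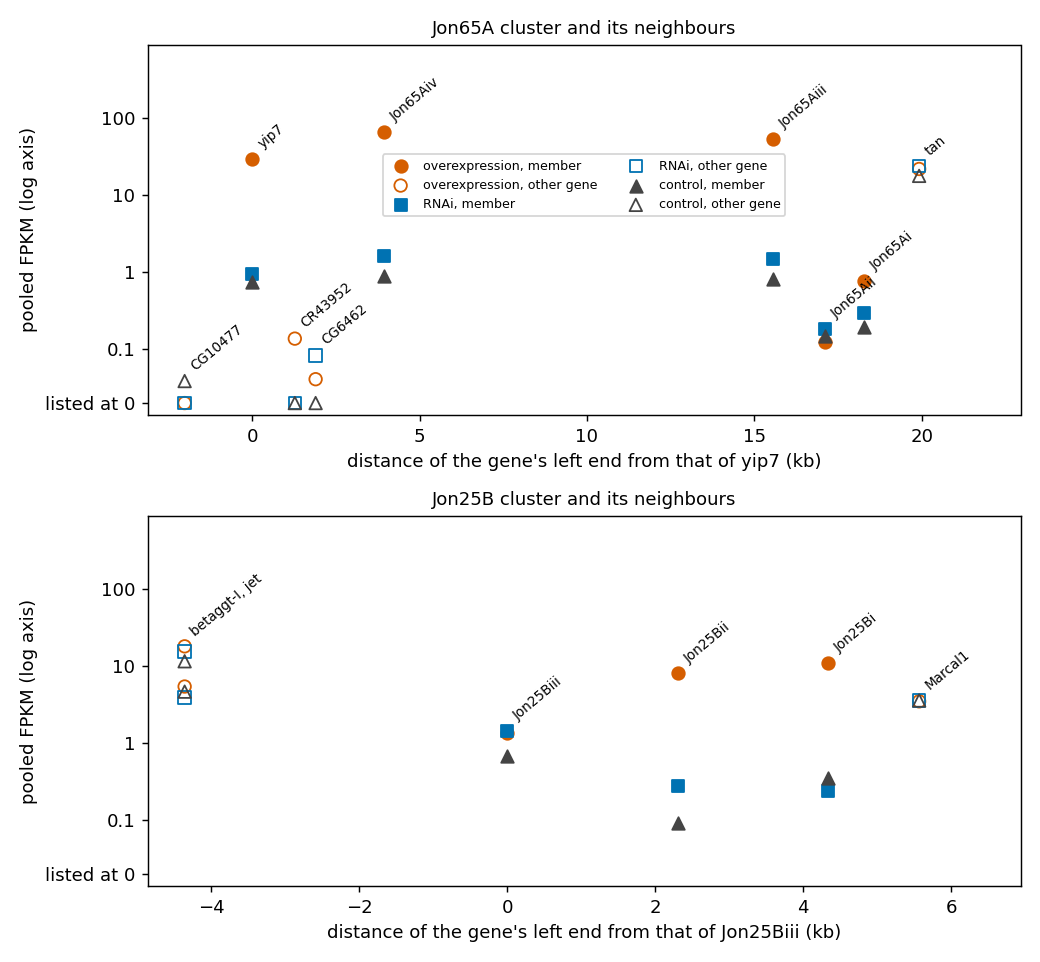
Pooled FPKM (log axis) against the distance in kb of each gene's left end from that of the first member, for the Jon65A cluster (upper panel) and the Jon25B cluster (lower panel), with members filled and other genes open. In overexpression discs (circles) yip7, Jon65Aiv and Jon65Aiii lie at 29.7, 66.7 and 54.0, while Jon65Aii and the neighbours CG6462 and CG10477 lie below 1.

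The Jon25B cluster split in the same way, though none of its genes was called. Jon25Bi (chromosome 2L, 4954279 to 4955144, minus strand) stood at FPKM 11.1 in overexpression discs and 0.245 in RNAi-labelled discs, against 0.353 in control discs. That was 31.3-fold over control, with a p of 0.0322 and a q of 0.221 in the authors' deposited table. Jon25Bii (chromosome 2L, 4952243 to 4953136, minus strand) stood at 8.12 in overexpression discs and 0.284 in RNAi-labelled discs, against 0.0933 in control discs. Its fold over control was 87.0, larger than that of any called member, but the implied standard error was 3.09 on a log2 fold of 6.44 and the q was 0.642 in the authors' deposited table. Jon25Biii, the third gene on the same strand, was about level between the treated groups, at 1.37 in overexpression discs and 1.44 in RNAi-labelled discs, against 0.694 in control discs. The q of Jon25Biii in the authors' deposited table was 0.740 for overexpression and 0.718 for RNAi.

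Among the trypsin genes, deltaTry was the high one. DeltaTry (chromosome 2R, 11355319 to 11356128, plus strand) stood at FPKM 11.0 in overexpression discs and 0 in RNAi-labelled discs, against 0.0519 in control discs. It was not called, with a p of 0.233 and a q of 0.674 in the authors' deposited table. Its locus is shared with CG13202, which stood at 0.745 in overexpression discs and 0.590 in RNAi-labelled discs, against 1.09 in control discs. DeltaTry belongs to a set of near-identical trypsin copies. The other loci of that set, a pair listed as CG30031 and 1 listed as CG30025, were at 0 in every group, so how fragments were shared among the copies is uncertain.

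AlphaTry and betaTry had lower values than deltaTry, and their highest were in overexpression discs. AlphaTry stood at FPKM 1.28 in overexpression discs and 0 in RNAi-labelled discs, against 0.0965 in control discs, with a q of 0.659 in the authors' deposited table for overexpression. BetaTry stood at 1.16 in overexpression discs and 0.0952 in RNAi-labelled discs, against 0.0877 in control discs, with a q of 0.575 in the authors' deposited table. EpsilonTry lies between these genes, 117 bases from alphaTry and 258 from betaTry, and was nearly level, at 0.856 in overexpression discs and 0.700 in RNAi-labelled discs, against 0.575 in control discs. IotaTry begins 591 bases beyond deltaTry and stood at 2.60 in overexpression discs and 1.88 in RNAi-labelled discs, against 2.98 in control discs. LambdaTry, kappaTry, zetaTry, etaTry and thetaTry had FPKM of 0.121 or less in every group. Summed over the 10 trypsin genes, FPKM was 17.0 in overexpression discs and 2.73 in RNAi-labelled discs, against 4.11 in control discs.

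The members at the remaining places were low in all groups. Jon99Ci stood at FPKM 1.16 in overexpression discs and 0.442 in RNAi-labelled discs, against 0.303 in control discs, with a q of 0.460 in the authors' deposited table for overexpression. Its neighbour Jon99Cii stood at 0.119 in overexpression discs and 0.354 in RNAi-labelled discs, against 0.339 in control discs. Jon66Ci stood at 0.412 in overexpression discs and 1.20 in RNAi-labelled discs, against 0.953 in control discs, and Jon74E at 1.05 in overexpression discs and 1.44 in RNAi-labelled discs, against 1.74 in control discs. These genes did not share a direction. Jon44E, Jon66Cii and Jon99Ciii lay between 0.193 and 0.401 in every group.

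Over all 27 genes the high members stood apart from a middle that moved little. At least 8-fold more in overexpression discs than in both RNAi-labelled and control discs, on the log2(FPKM + 0.1) scale, was found for 6 of 27 members, against 0.327% of all loci. These were Jon65Aiv, Jon65Aiii, yip7, Jon25Bi, Jon25Bii and deltaTry. Overexpression discs exceeded control discs in 17 of the 27 members (63.0%) and in 47.6% of all loci. One of the 17, Jon99Fii, had 0.439 against 0.438 and fell on the other side when folds were centred on the well expressed loci. Among the 2693 loci whose longest transcript lies in the members' range the share was 60.8%, close to that of the members. The median log2 fold of the members was 0.40 on the same scale, against 0.0 for all loci and 0.19 for loci of that length range.

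**Figure D3:**
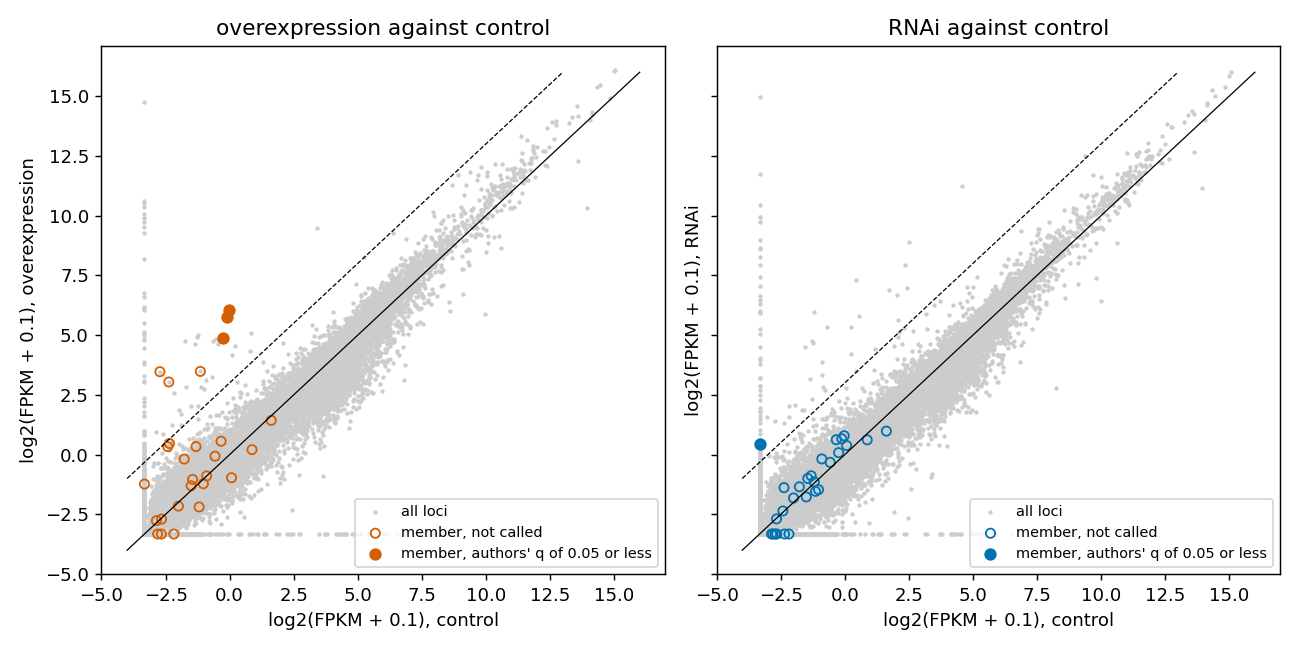
log2(FPKM + 0.1) of overexpression discs (left panel) and RNAi-labelled discs (right panel) against that of control discs, for all loci (grey) and the members (coloured, filled where called); the solid line marks equal values and the dashed line 8-fold more. In the left panel 6 members lie above the dashed line, and in the right panel 1 does.

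RNAi-labelled discs showed 1 called member, Jon99Fi. Jon99Fi (chromosome 3R, 30488963 to 30489895, plus strand), a Jonah gene of 1 exon, stood at FPKM 1.28 in RNAi-labelled discs and 0.326 in overexpression discs, against 0 in control discs. The authors' deposited table gave it a p of 0.00015 and a q of 0.00372 for RNAi, and it had no test for overexpression. Readjusted over the tested loci of this comparison alone, that p became 0.0893. Jon99Fii, which starts 1034 bases away on the other strand, stood at 0.782 in RNAi-labelled discs, against 0.438 in control discs, with a q of 0.890 in the authors' deposited table.

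In this comparison 10 members had a test, 1 was called higher and 0 lower, against 0.212% and 0.61% of 11314 tested loci. The unadjusted p was 0.05 or less for the same 1 member, against 0.884% of the tested loci. RNAi-labelled discs exceeded control discs in 15 of the 27 members (55.6%), against 42.9% of all loci and 53.5% of loci in the members' length range. The median log2 fold was 0.06, against 0.0 for all loci and 0.05 for loci of that length range. The 3 genes called in overexpression discs were not called here. In RNAi-labelled discs over control, Jon65Aiv was 1.84-fold with a q of 0.790 in the authors' deposited table, Jon65Aiii 1.80-fold with a q of 0.795, and yip7 1.28-fold with a q of 0.984. Both comparisons share the control libraries. The treated groups had no deposited test against each other. The median log2 difference of overexpression over RNAi-labelled discs was 0.45, against 0.0 for all loci and 0.09 for loci of that length range.

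The pooled values still hold a trace of the single libraries. For a gene with 1 transcript, a group's FPKM is a sum of whole fragments from each library, each worth a fixed amount that depends on the library's scaling and the gene's length. Solving for whole numbers gave fragment counts per library for 24 of the 27 members, 20 of them with a single solution in every group. The libraries of a group are here called a, the one with more fragments per FPKM, and b. The letters cannot be tied to replicate numbers. A fragment of a 900 nt transcript was worth FPKM 0.0505 in library a and 0.0566 in library b of the overexpression group. In the RNAi-labelled group it was worth 0.0513 and 0.0584, and in the control group 0.0457 and 0.0616. Most low values of these genes thus stand for a handful of fragments.

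In overexpression discs, the fragments of deltaTry, alphaTry and betaTry came almost wholly from library a. DeltaTry had 189 fragments in library a and 2 in library b, which corresponds to FPKM 21.7 and 0.257. AlphaTry had 24 in library a and 0 in library b, where a count of 0 allows up to 3 fragments or FPKM 0.179. BetaTry had 26 in library a and 2 in library b. One-sided loci occurred in other groups too. Among all loci of the overexpression group with 20 or more fragments and a single solution, 0.939% of 1171 had at least 90% of their FPKM in library a and 0.0% in library b. In the control group the share was 1.22% for library a and 1.48% for library b, of 1152 loci. The 3 trypsin genes reach 20 fragments only through library a, so nothing is read from setting them against these shares.

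Some other members were spread over both overexpression libraries. IotaTry had 19 fragments in library a and 24 in library b, Jon25Biii 10 and 13, and Jon99Ci 12 and 10. EpsilonTry, at 12 and 3, lay between these patterns. Jon99Fi, at 0 and 6, and Jon99Fii, at 1 and 7, had few fragments and most of them in library b. Over the 20 members with a single solution in every group, library a held 308 fragments and library b 91 in overexpression discs. Without deltaTry, alphaTry and betaTry the counts were 69 in library a and 87 in library b. These 3 were left out because their FPKM lay in library a, so the drop in library a follows from that choice. Among the 20 members, deltaTry, alphaTry and betaTry were the 3 at least 4-fold higher in overexpression discs than in both other groups. As their split between libraries fixes, 0 of them were so with library a left out and 3 with library b left out.

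For the called members the split between libraries is unresolved. At their size several pairs of whole numbers give the same FPKM. Jon65Aiv had 10 possible pairs in overexpression discs, from 6 fragments in library a with 1179 in library b to 1315 with 12. Jon65Aiii had 6, from 183 with 758 to 1024 with 8. Yip7 had 3 pairs, namely 83 with 454, 295 with 265 and 590 with 2. Jon25Bi also had 3, and in all of them library a held most of the FPKM, from 63.0% to 98.4%. Jon25Bii, Jon65Ai and Jon74E had no solution. Whether the rise of Jon65Aiv, Jon65Aiii and yip7 stood in both libraries therefore cannot be read from these values.

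The call of Jon99Fi in RNAi-labelled discs rested on 1 library. It had 1 fragment in library a and 22 in library b, and 0 in both control libraries, where a count of 0 allows up to FPKM 0.131 in library a and 0.177 in library b. In overexpression discs it had 0 in library a and 6 in library b. By FPKM, 13 of the 20 members, Jon99Fi included, were higher in library b of the RNAi-labelled group, 1 (Jon99Ciii) was higher in library a and 6 were at 0 in both. In overexpression discs 11 were higher in library b, 6 in library a and 3 were at 0 in both. In the control group 9 were higher in library b and 10 in library a. The same count over all loci was not made, so these counts are not read as particular to the members. Most of the 20 members have fewer than 20 fragments in a group, so the medians that follow cover better measured loci. Over all loci with 20 or more fragments and a single solution, the median share of library a was 47.9% in the RNAi-labelled group. It was 47.7% in the overexpression group and 53.6% in the control group. Summed over the 20 members, FPKM was 4.69 in library a and 13.8 in library b of the RNAi-labelled group, against 7.38 and 8.43 in the control group. Without Jon99Fi the sums in the RNAi-labelled group were 4.59 and 11.4. Of 1107 loci with 20 or more fragments and a single solution in the RNAi-labelled group, 0.181% had 90% or more in library b. Jon99Fi is among them and reaches 20 fragments only through library b, so nothing is read from setting it against this share. The counts carry counting error only.

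**Figure D4:**
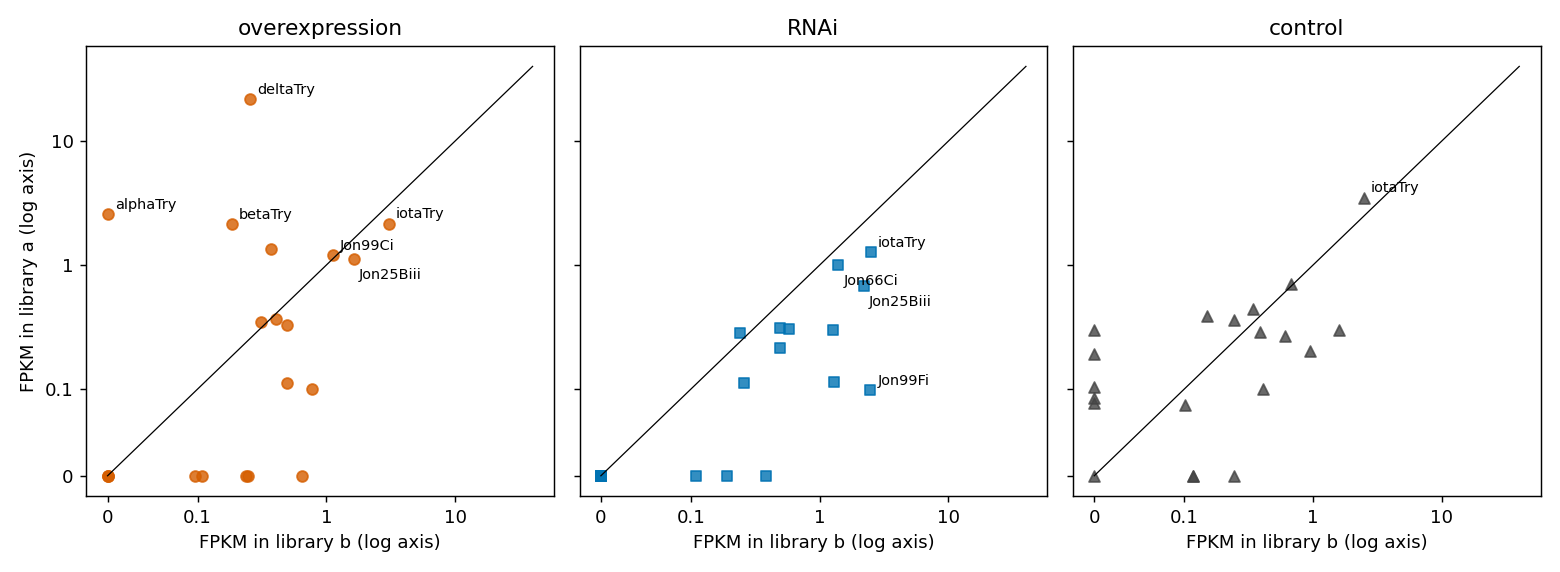
FPKM in library a against FPKM in library b (log axes, values of 0 placed at the edge) for the 20 members with a single whole-fragment solution, in overexpression, RNAi-labelled and control discs; the line marks equal values and genes with 20 or more fragments are named. DeltaTry, alphaTry and betaTry lie far above the line in overexpression discs, with 189, 24 and 26 fragments in library a, and Jon99Fi far below it in RNAi-labelled discs, with 1 and 22.

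Markers of the eye disc were present in every group. Of 13 such genes, which include the retinal determination gene eya and the photoreceptor regulator gl, all had a value above 0. Their summed FPKM was 217.5 in overexpression discs and 232.9 in RNAi-labelled discs, against 396.3 in control discs. Overexpression discs had a lower value than control discs for 12 of the 13, against 6730 of all 15904 loci. Of the 13, gl and lz were called, with q of 0.0306 and 0.0191 in the authors' deposited table, against 1.06% of tested loci called lower. In RNAi-labelled discs all 13 were lower, against 7475 of all 15904 loci, and 0 were called. There gl and lz had an unadjusted p of 0.0285 and 0.0077 in the authors' deposited table, against 3.61% of tested loci lower at 0.05 or less. The part of this difference in the values of the proteases was not tested.

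Other genes of the gut were set beside the proteases. GATAe, a regulator of the endoderm, stood at FPKM 0.0277 in overexpression discs and 0.0302 in RNAi-labelled discs, against 0.0346 in control discs. The midgut sterol transporter gene Npc1b was below 0.012 everywhere. Both were the lowest of their list in every group. Midgut regulators and brush border genes, 10 in all, summed to 46.7 in overexpression discs and 48.8 in RNAi-labelled discs, against 59.9 in control discs. By Cuffdiff 0 of them were called, and 0 had an unadjusted p of 0.05 or less in either comparison. Most of that sum came from GATAd, Myo31DF and Myo61F, which stood at 10 or more in all groups. Of the 10, 5 were higher in overexpression discs than in control discs and 4 in RNAi-labelled discs, against 47.6% and 42.9% of all loci. Among them, mex1 stood at 2.81 in overexpression discs and 1.77 in RNAi-labelled discs, against 1.94 in control discs. The list of enzymes for carbohydrate and lipid digestion, with 18 of 24 genes matched, summed to 35.5 in overexpression discs and 24.0 in RNAi-labelled discs, against 30.4 in control discs. It held 0 calls, 0 genes at an unadjusted p of 0.05 or less and 0 genes past 8-fold. Enteroendocrine hormone genes summed to 3.74 in overexpression discs and 2.98 in RNAi-labelled discs, against 2.55 in control discs. Peritrophic matrix and mucin genes summed to 9.84 in overexpression discs and 8.26 in RNAi-labelled discs, against 9.27 in control discs.

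Some gut lysozyme genes had their highest values in overexpression discs, without a call. These enzymes digest bacterial cell walls in the gut. The 7 genes summed to FPKM 61.5 in overexpression discs and 4.64 in RNAi-labelled discs, against 2.34 in control discs. LysB stood at 26.6 in overexpression discs and 0.556 in RNAi-labelled discs, against 0.196 in control discs. LysS stood at 24.9 in overexpression discs and 0.858 in RNAi-labelled discs, against 0.627 in control discs. LysD stood at 8.01 in overexpression discs and 1.55 in RNAi-labelled discs, against 1.12 in control discs. Over control on the log2(FPKM + 0.1) scale 3 were past 8-fold, against 0.572% of all loci. These were LysB, LysS and LysE, the last listed at 0 in control discs. LysX had the order of LysB, LysS and LysD at a low level, 0.296 in overexpression discs and 0.105 in RNAi-labelled discs, against 0 in control discs. LysC and LysP did not share this order. LysC stood at 0.112 in overexpression discs and 0.628 in RNAi-labelled discs, against 0.201 in control discs, and LysP at 0.498 in overexpression discs and 0.942 in RNAi-labelled discs, against 0.195 in control discs. By Cuffdiff 0 of the 7 were called, and 0 had an unadjusted p of 0.05 or less in overexpression discs. The q of LysB was 0.692 and that of LysS 0.666 in the authors' deposited table.

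Markers of further tissues near the disc were summed as well. The 6 fat body genes, which include the larval serum proteins, summed to FPKM 87.2 in overexpression discs and 168.7 in RNAi-labelled discs, against 39.2 in control discs. All 6 were higher in overexpression discs than in control discs, against 47.6% of all loci. Of the 6, 0 were called there and 3 passed the unadjusted p of 0.05, as did 0.58% of tested loci in that direction. In RNAi-labelled discs 4 of the 6 were called higher, against 0.212% of tested loci. Salivary gland genes summed to 83.5 in overexpression discs and 3295 in RNAi-labelled discs, against 51.7 in control discs, with 4 called higher in RNAi-labelled discs, against the same 0.212%. The salivary genes Sgs3 and Eig71Ee, picked for their whole-fragment counts, were one-sided in the control as well. Sgs3, a glue gene, had 139 fragments in library a and 1 in library b of the overexpression group, against 9 and 153 in the control group. Eig71Ee had 133 and 6 in the overexpression group, against 16 and 138 in the control group. The pooled FPKM of both was lower in overexpression discs, 5.53 against 7.74 in control discs for Sgs3 and 3.96 against 5.25 for Eig71Ee. Malpighian tubule genes summed to 35.1 in overexpression discs and 34.3 in RNAi-labelled discs, against 27.2 in control discs. Most of that sum came from Drip, at 32.6 in overexpression discs and 30.8 in RNAi-labelled discs, against 24.7 in control discs. Haemocyte genes summed to 17.5 in overexpression discs and 18.3 in RNAi-labelled discs, against 15.0 in control discs. Muscle genes summed to 2817 in overexpression discs and 1494 in RNAi-labelled discs, against 2475 in control discs. By Cuffdiff these 3 lists held 0 calls, and at an unadjusted p of 0.05 or less they held 0 genes in overexpression discs, and 1 higher and 1 lower gene in RNAi-labelled discs. The part of these tissues in the values of the proteases was not tested.

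Other serine protease genes mostly did not follow. The 6 other named gut serine protease genes summed to FPKM 2.28 in overexpression discs and 3.44 in RNAi-labelled discs, against 2.55 in control discs. A wider set, chosen after values were seen, took the 221 further loci that carry an SP or SPH number among their RefSeq synonyms. It is mostly serine proteases and their inactive homologues, with a few genes of other kinds. It had a median log2 fold of 0.0 in both comparisons. In overexpression discs 131 were tested, 0 were called higher and 2 lower, near the 1.06% of all tested loci called lower. At an unadjusted p of 0.05 or less 3 were higher, Phae1, CG31326 and CG43124, against 0.58% of all tested loci. Lower at that p were 5, Np, mas, CG8170, Sp1 and skd, against 5.58% of all tested loci. In RNAi-labelled discs 128 were tested, 0 were called higher and 3 lower, namely CG3916, CG17404 and Np, against 0.61% of all tested loci. At an unadjusted p of 0.05 or less 1 was higher and 8 lower there, against 0.884% and 3.61% of all tested loci. A single locus was past 8-fold in overexpression discs over both other groups, against 0.327% of all loci. That one was CG9672, at 5.89 in overexpression discs and 0.570 in RNAi-labelled discs, against 0.121 in control discs, with a q of 0.715 in the authors' deposited table. Those called lower in overexpression discs were Np and mas, a transmembrane protease gene and the gene of an inactive protease homologue known from muscle attachment. Np stood at 1.36 in overexpression discs and 2.24 in RNAi-labelled discs, against 11.6 in control discs.

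The loci most like the called members were ranked by the smaller of the log2 folds of overexpression over control and over RNAi-labelled discs, among loci with FPKM 5 or more in overexpression discs. The first 8 were small RNA loci listed at 0 in both other groups: mir-1006, mir-2a-2, snoRNA:Me28S-A2113, snoRNA:Me18S-G1358b, snoRNA:Me18S-U1356a, mir-306, snoRNA:Or-CD11 and mir-79. None of the 8 was called, and the smallest unadjusted p among them was 0.122 in the authors' deposited table. With small RNA names left out, a restriction chosen after values were seen, the first 8 were LysB, CG31789, LysS, CG7953, CG12115, CG6933, CG14302 and CG8997. CG6933 was the only one of these called, at 7.07 in overexpression discs and 0.363 in RNAi-labelled discs, against 0.212 in control discs, with a q of 0.0468 in the authors' deposited table. CG12115, at 8.66 in overexpression discs and 0.122 in RNAi-labelled discs, against 0.433 in control discs, had 161 fragments in library a and 3 in library b of the overexpression group. Ranked likewise for RNAi-labelled discs, the first 4 were mir-13b-1, snRNA:U7, mir-4911 and snoRNA:Me28S-A1666a, all listed at 0 in both other groups. The likeness is over 3 pooled values only.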

How the data were processed

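Eye disc RNA from 6 libraries in 3 groups of 2 was read as 50 nt pairs over 2 lanes, per the labels' protocols, after a stranded total RNA kit with ribosomal RNA depletion. Per the submitters' processing notes the tools were Cuffdiff 2.1.1, TopHat, Bowtie and Cufflinks, on dm6. The sources used here do not give the annotation or whether strand was counted. Overlapping or near-identical genes are uncertain. The authors deposited 2 tables of 15904 loci with 1 pooled FPKM per group, per the file headers. The p-value, the q-value and the test statistic, a score, are those of the authors' deposited tables. The total depth per library is unknown.

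The comparison for overexpression lists the treated group first, so its statistic was turned to overexpression over control. A call is a q of 0.05 or less. The limma fit considered for values per library was not run, since the deposited FPKM are pooled. Lists used log2(FPKM + 0.1), a scale on which low genes change less, and single members the plain fold. Lengths and positions came from Ensembl 115, synonyms from RefSeq. Deposited starts count from 0 and became starts counted from 1, which equal the Ensembl gene start for 26 of 27 members. The members and lists were chosen with earlier results of these data known. Named genes were all members, up to 4 of each list with the smallest q, or the highest FPKM where none was called, and the loci most like the called members. Other names were chosen after their values were seen. Those are tan and the genes between members, CG13202 and the trypsin copies, LysE, eya, Npc1b, GATAe and mex1. Sgs3, Eig71Ee, LysC, LysP, LysX, Np, mas, Phae1, CG31326, CG43124, CG8170, Sp1, skd and CG9672 were also chosen so.

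The whole-fragment values, added after the data were seen, solved FPKM as whole fragments of each library over effective length, within print rounding of 6 digits plus a relative 2e-06. Scale and fragment length of each library were fitted on 1-transcript loci of 700 to 4000 nt. Of loci with up to 20 fragments, 94.2% in overexpression, 93.9% in RNAi and 94.4% in control had a solution. From 100 to 1000 fragments a single solution was found for only 49.4%, 50.4% and 50.2%. Jon44E, betaTry and Jon99Ciii, with 2 transcripts each, were solved at the only annotated length that gave a solution in all groups. The method was tested on simulated data. Python 3.11.15, numpy 2.4.6, pandas 2.3.3, scipy 1.17.1 and matplotlib 3.10.9 were used.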

Additional observations from a re-analysis of the deposited data

How the results depend on the processing

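The count of members called higher in overexpression discs, 3, was 2 at a q of 0.01 or less and 4 at an unadjusted p of 0.05 or less. It was 0 with Benjamini-Hochberg values recomputed over the tested loci, and 0 with those recomputed over loci with FPKM of 1 or more. For RNAi-labelled discs, 1 became 0 under both recomputations and stayed 1 at the other thresholds. The authors' q was not set within 1 comparison, since loci with equal Cuffdiff p had equal q in both. A Cuffdiff p of 0.0001, for example, had a q of 0.00264 for Np in overexpression discs and for Lsp2 in RNAi-labelled discs. The recomputed values each cover a single comparison and so adjust over a different set of tests. Whether the authors' q covers further tests is not known. The count of members 8-fold over both other groups, 6, was 5 with a pseudocount of 1, 8 with a pseudocount of 0.01, 8 at 4-fold and 6 at 16-fold. The members' median log2 fold of overexpression over control, 0.40, was 0.13 with pseudocount 1, 0.51 with 0.01, 1.24 over members of mean FPKM 0.1 or more, 0.37 centred on well expressed loci and 0.21 centred on loci of the members' length. For RNAi over control, 0.06, it was 0.016, 0.11, 0.28, 0.083 and 0.0058 under the same settings in that order. For overexpression over RNAi, 0.45, it was 0.076, 0.47, 0.46, 0.42 and 0.36 in that order. The sign of single members' folds changed in 1 of 54 cases under centring and in 0 under the other pseudocounts. The length centring was chosen after seeing the data. No paired analysis was possible because the deposited values are pooled over libraries and the libraries recovered from them carry no replicate number. Leave-one-out and replicate block fits were not run for the same reason. Only the count of members at least 4-fold higher was repeated with 1 recovered overexpression library left out. Depth limits the low members most: many rest on fewer than 20 fragments in a group.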
